A study of Mus musculus with 6 samples.

Results

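A set of 10 genes of interleukin-6 (IL-6) family signalling and of the cytokine support that stromal cells give to osteoclasts was followed in mouse embryonic fibroblasts (MEFs) carrying an ORAI2 or a GFP adenovirus. The 10 genes were taken by symbol from the 26532 genes of the deposited table, and every member had a row. They are the ligands Il6, Il11 and Lif, the receptor chains Osmr, Il6st and Lifr, the feedback inhibitor Socs3, and the osteoclast regulators Csf1, Tnfsf11 and Tnfrsf11b.

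MEFs are primary cells from mouse embryos with some capacity for bone formation, and the labels give their type as mesenchymal stem cells. The ORAI2 group comprised 3 libraries, labelled ORAI2 Overexpression, from cells in which a recombinant adenovirus (AdORAI2) expressed ORAI2, a pore subunit of store-operated calcium channels. The GFP group comprised 3 libraries, labelled WT, from cells given an adenovirus with green fluorescent protein (AdGFP). Both groups carried a virus and the same treatment label, osteogenic differentiation, and the series title names induction by BMP9. The labels give no duration, no BMP9 dose, no age or strain of the embryos, and no statement on separate cultures. The p-values therefore reflect the variation among these libraries alone, and that variation could be technical. No group without virus was analysed here.

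Total counts lay between 18526884 and 18844436 per library. Orai2 was at 2441 to 3656 CPM (counts scaled to a common library total after TMM normalization) in the ORAI2 libraries and at 48.7 to 53.4 CPM in the GFP libraries, as the labels say. Of 13764 genes tested with edgeR, 42.9% passed a Benjamini-Hochberg adjusted p of 0.05, 20.8% higher and 22.1% lower in ORAI2. Every count of members, and of the genes in a list, is to be read against these shares. The median log2 fold change over all tested genes was -0.0018. Fibroblast markers summed to 1243 to 1364 CPM in ORAI2 and 2312 to 2433 CPM in GFP libraries, with all 8 tested markers lower in ORAI2, Thy1 nearly absent and Col1a1 the largest share. The osteoblast markers Sp7 and Bglap had at most 4 counts in any library, whereas Runx2 was at 66.7 ± 5.66 CPM in ORAI2 and 71.5 ± 3.60 CPM in GFP libraries (SD, n = 3 each). Spp1 was the most abundant marker of that list, at 545 ± 55.6 CPM in ORAI2 and 612 ± 73.9 CPM in GFP libraries. None of the 4 tested osteoblast markers, Runx2, Spp1, Alpl and Phex, passed. The part that the shift in fibroblast markers plays in the results below was not tested.

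IL-6 family cytokines signal through gp130, the shared receptor chain encoded by Il6st. IL-6 and IL-11 bind their own alpha receptors and then gp130, LIF uses gp130 with the LIF receptor (Lifr), and mouse oncostatin M uses gp130 mainly with the oncostatin M receptor (Osmr). Their receptors activate JAK kinases and STAT3, which induces Socs3, an inhibitor that binds gp130 and shuts the signal off. In bone, stromal and osteoblast-lineage cells respond to these cytokines and feed osteoclast precursors with M-CSF (Csf1) and RANKL (Tnfsf11), while the decoy receptor osteoprotegerin (Tnfrsf11b) captures RANKL.

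Among the 10 members 6 fell with ORAI2 (Il6, Osmr, Il6st, Lifr, Socs3 and Tnfsf11), 1 rose (Lif) and 3 did not pass (Il11, Csf1 and Tnfrsf11b). The median log2 fold change over the 10 was -0.34. Every member passed the low-count filter, but Tnfsf11 did so only through the GFP libraries, where it was higher. The groups did not overlap for the same 7 members that passed the test, all but Lif with ORAI2 below. Over all tested genes the groups did not overlap in 52.8%, with ORAI2 below in 26.6% and above in 26.2%. Because bulk RNA was measured, fewer expressing cells and less RNA per cell cannot be told apart for any of these genes.

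**Figure D1:**
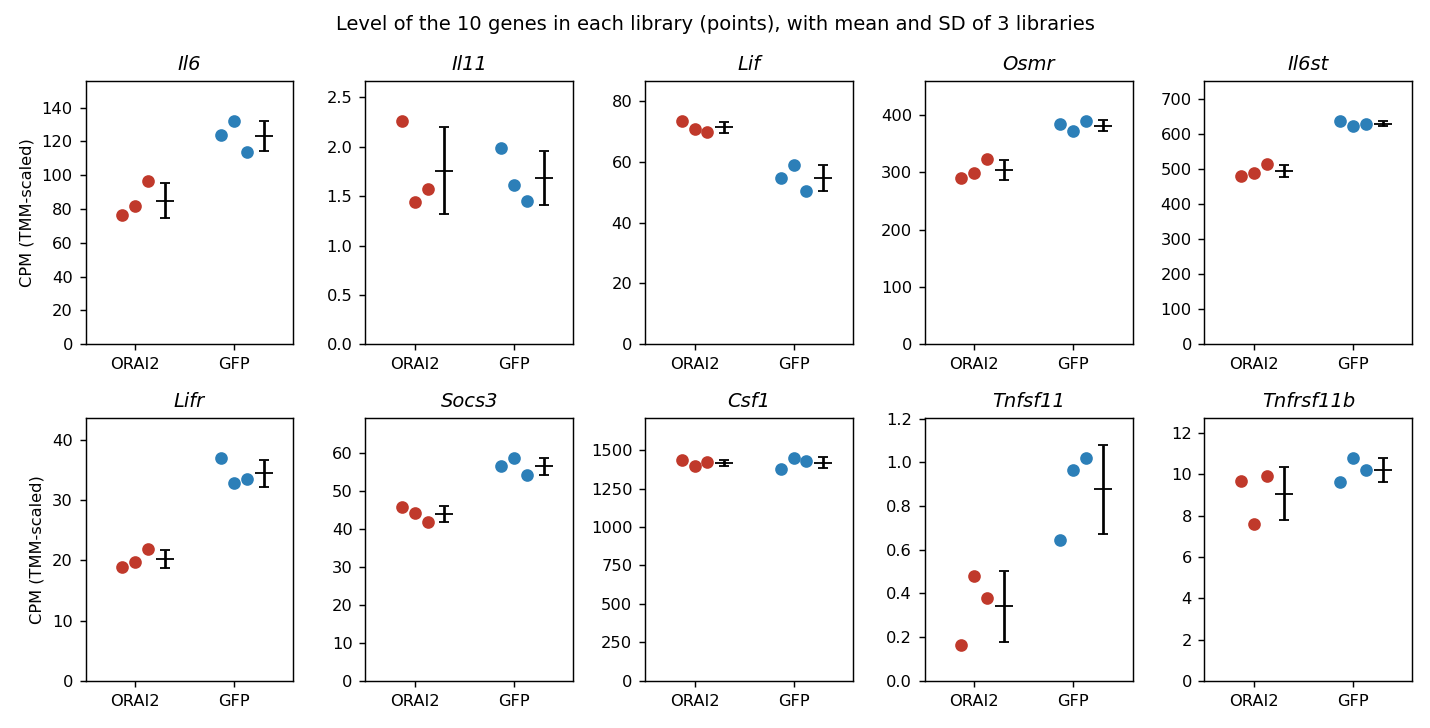
Each panel gives a gene's level in CPM (y axis, TMM-scaled, from 0) in the 3 ORAI2 libraries (red) and the 3 GFP libraries (blue), with the mean and SD beside the points. The ORAI2 points lie below all GFP points for Il6, Osmr, Il6st, Lifr, Socs3 and Tnfsf11 and above them for Lif, and the groups overlap for Il11, Csf1 and Tnfrsf11b.

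The 2 well-measured ligands moved in opposite directions. Il6, the founding cytokine of the family and an inflammatory signal of fibroblasts, had 76.4, 81.6 and 96.4 CPM in the ORAI2 libraries, against 124, 132 and 114 CPM in the GFP libraries. All 3 ORAI2 libraries were below all 3 GFP libraries. The fall was 1.45-fold, or -0.54 in log2 with an SE of 0.07 (adjusted p = 8.49e-05 by the quasi-likelihood test of edgeR). An annotated noncoding gene, A230098N10Rik, overlaps Il6, and without stated strand use their reads cannot be told apart.

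Lif, the leukemia inhibitory factor, which keeps mouse stem cells undifferentiated and also acts on bone cells, went the other way. It had 73.4, 70.9 and 70.0 CPM in the ORAI2 libraries, against 54.7, 58.9 and 50.3 CPM in the GFP libraries. Every ORAI2 library lay above every GFP library. The rise was 1.31-fold, or 0.39 in log2 with an SE of 0.06 (adjusted p = 1.10e-04, edgeR).

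The balance of these ligands, taken within each library, differed between the groups. Lif CPM was 0.961, 0.869 and 0.726 times Il6 CPM in the ORAI2 libraries, against 0.443, 0.448 and 0.440 times in the GFP libraries. The GFP libraries were nearly identical in this ratio, whereas the ORAI2 libraries spread over a wider range above them. The log2 ratio was 0.93 higher in ORAI2, a 1.91-fold difference (two-sided exact permutation test, p = 0.1, the smallest that 3 against 3 libraries can give). This was 1 of 6 ratios between members, 5 of them chosen after the values were seen, and the adjusted p over the 6 was 0.15.

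Il11, a cytokine that supports osteoclast formation and stromal fibrosis, was scarce. It had 42, 27 and 29 counts in the ORAI2 libraries, against 37, 30 and 27 counts in the GFP libraries, and the groups overlapped. The log2 fold change was 0.07 (SE 0.24, adjusted p = 0.853, edgeR). Its 95% confidence interval reached -0.45 to 0.59, so a change of the size seen for Lif could not be detected at this depth. The direction turned without GFP replicate 3 (-0.03) or without ORAI2 replicate 1 (-0.15). Tmem190 overlaps Il11 in the annotation.

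The start regions of Il6 and Lif are shown because these ligands moved apart, and that of Socs3 because it is the STAT3-induced member. The RefSeq windows (assembly GRCm38.p6, a different build from the authors' GRCm39) run from 250 bases before to 50 after the annotated start, 5′ to 3′ on the gene's strand. Capitals mark matches to the letters TGANTCA (AP-1), TTCNNNGAA (STAT), TTGNNCAA (C/EBP) and GGGA, any base, then TTTCC (NF-kB), each searched on both strands. Il6 lies at chr5:30012864-30013163 on the plus strand, Lif at chr11:4257318-4257617 on the plus strand and Socs3 at chr11:117969317-117969616 on the minus strand.
Il6: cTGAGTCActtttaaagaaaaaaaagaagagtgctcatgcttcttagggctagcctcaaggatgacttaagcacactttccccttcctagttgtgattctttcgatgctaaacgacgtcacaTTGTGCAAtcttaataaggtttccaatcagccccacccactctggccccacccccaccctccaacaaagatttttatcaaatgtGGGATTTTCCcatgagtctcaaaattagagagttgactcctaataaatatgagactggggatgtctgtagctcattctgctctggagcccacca
Lif: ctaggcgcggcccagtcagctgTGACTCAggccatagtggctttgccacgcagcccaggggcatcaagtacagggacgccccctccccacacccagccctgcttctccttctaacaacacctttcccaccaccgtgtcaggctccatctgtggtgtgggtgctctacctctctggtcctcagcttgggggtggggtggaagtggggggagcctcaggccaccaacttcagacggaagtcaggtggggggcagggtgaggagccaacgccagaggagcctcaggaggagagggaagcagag
Socs3: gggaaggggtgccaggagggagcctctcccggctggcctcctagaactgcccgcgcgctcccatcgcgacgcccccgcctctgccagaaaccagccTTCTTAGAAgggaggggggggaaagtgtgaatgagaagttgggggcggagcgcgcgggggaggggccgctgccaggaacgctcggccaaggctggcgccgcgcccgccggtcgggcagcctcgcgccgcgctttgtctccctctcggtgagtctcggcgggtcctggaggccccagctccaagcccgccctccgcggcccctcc

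Il6 and Lif each hold 1 AP-1 match, at -249 to -243 in Il6 and -228 to -222 in Lif, counted from the start of the gene. Il6 also holds a C/EBP match at -128 to -121 and an NF-kB match at -44 to -35, which Lif lacks in this window. Socs3 holds a STAT match at -154 to -146 and none of the other motifs. Over 32851 windows of 300 bases, 7.81% held the AP-1 letters, 8.30% the STAT letters, 6.40% the C/EBP letters and 0.411% the NF-kB letters. Windows were found for 9 of the 10 members, and the only other NF-kB match was in Csf1. Further AP-1 matches were in Osmr, at 4 to 10, and in an Il11 window, at -98 to -92. A match describes the letters and does not show that a factor binds there.

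All 3 receptor chains fell. Il6st, which encodes gp130, had 481, 489 and 514 CPM in the ORAI2 libraries, against 637, 623 and 628 CPM in the GFP libraries. The groups were far apart relative to their spread, with a coefficient of variation of 3.50% in ORAI2 and 1.15% in GFP libraries. Il6st was 1.27-fold lower, or -0.35 in log2 with an SE of 0.04 (adjusted p = 9.15e-06, edgeR).

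Osmr, the partner of gp130 for oncostatin M, had 290.3, 298 and 323 CPM in the ORAI2 libraries, against 384, 371 and 389 CPM in the GFP libraries. Again no ORAI2 library reached a GFP library. The fall was 1.26-fold, or -0.33 in log2 with an SE of 0.04 (adjusted p = 5.86e-05, edgeR). Osmr CPM was 0.604 to 0.629 times Il6st CPM in ORAI2 and 0.596 to 0.620 times in GFP libraries, and these ranges overlapped (exact permutation test, p = 0.5, adjusted over 6 ratios 0.5). Il6 CPM was 0.159 to 0.188 times Il6st CPM in ORAI2 and 0.182 to 0.211 times in GFP libraries, again with overlap (exact permutation test, p = 0.2, adjusted over 6 ratios 0.24).

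Lifr, the partner of gp130 for LIF, changed more than the other receptor chains and had the smallest p of all members. It had 18.9, 19.8 and 21.9 CPM in the ORAI2 libraries, against 37.0, 32.8 and 33.5 CPM in the GFP libraries. Each ORAI2 library was well below the lowest GFP library. Lifr fell 1.71-fold, or -0.77 in log2 with an SE of 0.07 (adjusted p = 3.66e-06, edgeR), and 13.2% of all called genes had a larger absolute change.

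Relative to Il6st of the same library, Lifr was lower in every ORAI2 library than in any GFP library. Lifr CPM was 0.0392, 0.0405 and 0.0425 times Il6st CPM in the ORAI2 libraries, against 0.0580, 0.0526 and 0.0533 times in the GFP libraries. The log2 ratio differed by -0.42, with no overlap (exact permutation test, p = 0.1, the smallest possible, adjusted over 6 ratios 0.15). Ligand and receptor of LIF thus moved in opposite directions. Lif CPM was 3.89, 3.58 and 3.20 times Lifr CPM in the ORAI2 libraries, against 1.48, 1.8 and 1.5 times in the GFP libraries (log2 difference 1.16, exact permutation test, p = 0.1, adjusted over 6 ratios 0.15).

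The genes whose pattern over the 6 libraries was most like that of Lifr were Sqor, Paox and Eid1, with Pearson r of 0.999, 0.999 and 0.998 on log2 CPM. Sqor encodes a mitochondrial sulfide-oxidising enzyme, Paox a polyamine oxidase and Eid1 an inhibitor of EP300. Such values are common here, since 1038 of the 10518 genes averaging 5 CPM or more had an r above 0.95, and the points share the difference between the groups.

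Socs3 had 45.9, 44.3 and 41.7 CPM in the ORAI2 libraries, against 56.5, 58.7 and 54.2 CPM in the GFP libraries. The ORAI2 libraries were all lower. Socs3 fell 1.28-fold, or -0.36 in log2 with an SE of 0.05 (adjusted p = 1.22e-04, edgeR), about as much as Il6st and Osmr.

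**Figure D2:**
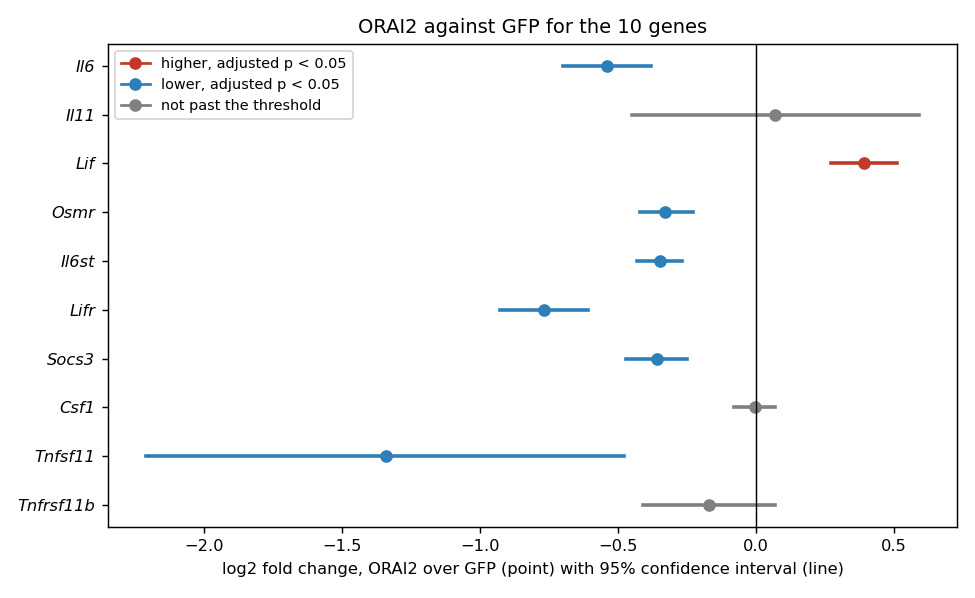
The log2 fold change of each gene, ORAI2 over GFP (x axis, points), is drawn with its 95% confidence interval (lines), and colour gives the call. The intervals of Il6, Osmr, Il6st, Lifr, Socs3 and Tnfsf11 lie below 0 and that of Lif above it, with the interval of Csf1 the narrowest around 0 and that of Tnfsf11 the widest.

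Of the osteoclast regulators, the abundant Csf1 and the decoy Tnfrsf11b did not pass the test, and the call of the scarce Tnfsf11 depended on the processing. Csf1, which encodes M-CSF, the survival and growth factor of osteoclast precursors, had 1432, 1396 and 1419 CPM in the ORAI2 libraries, against 1376, 1449 and 1431 CPM in the GFP libraries. The groups overlapped, and the libraries of both groups were within a few percent of each other. The log2 fold change was -0.0029 (SE 0.04, adjusted p = 0.958, edgeR), and its 95% confidence interval of -0.08 to 0.07 excludes changes as large as those of Il6st or Osmr. Its sign turned under 5 of 14 alternatives. Gm40121 overlaps Csf1 in the annotation.

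Tnfsf11, which encodes RANKL, the signal that drives osteoclast formation, was near the detection limit and met the low-count filter only through the GFP libraries. It had 3, 9 and 7 counts in the ORAI2 libraries, against 12, 18 and 19 counts in the GFP libraries. The groups did not overlap, but the highest ORAI2 library and the lowest GFP library were only 3 counts apart. The log2 fold change was -1.34 (SE 0.40, 95% confidence interval -2.21 to -0.48, adjusted p = 0.0158, edgeR). The call was lost with DESeq2 (adjusted p = 0.0567) and without GFP replicate 2, GFP replicate 3 or ORAI2 replicate 1 (adjusted p = 0.0567, 0.0541 and 0.0719).

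Tnfrsf11b, which encodes osteoprotegerin, had 9.69, 7.58 and 9.90 CPM in the ORAI2 libraries, against 9.61, 10.8 and 10.2 CPM in the GFP libraries. The ORAI2 libraries reached into the GFP range. The log2 fold change was -0.17 (SE 0.11, 95% confidence interval -0.41 to 0.07, adjusted p = 0.246, edgeR).

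The ratio of RANKL to osteoprotegerin transcripts is a common summary of the support that stromal cells offer osteoclasts. Tnfsf11 had 1.67, 6.34 and 3.83 counts per 100 Tnfrsf11b counts in the ORAI2 libraries, against 6.70, 8.96 and 10 in the GFP libraries. The ratio rests on few Tnfsf11 counts, 3 to 9 in an ORAI2 library, and on a gene that met the low-count filter only through the GFP libraries. Both groups were low in this ratio, and ORAI2 replicate 2 came close to GFP replicate 1. With a prior count of 2 the log2 ratio of CPM averaged -4.42 ± 0.74 in ORAI2 and -3.41 ± 0.26 in GFP libraries (SD, n = 3 each), a difference of -1.01 (two-sided exact permutation test, p = 0.1, the smallest possible, adjusted over 6 ratios 0.15). Without ORAI2 replicate 1 the difference was -0.63, which is over 1.5 times smaller.

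Levels were compared between genes per kilobase of the longest annotated coding transcript. The order of the genes depends on that choice of length. Il6st has 8 annotated coding transcripts, Il6 has 4 and Osmr 2, and which of them were expressed was not determined. The deposited TPM values list Il6, Osmr and Il6st in another order in some columns, as given under the flagged results. Csf1 was highest, at 339 ± 4.42 CPM per kb in ORAI2 and 339.7 ± 9.09 CPM per kb in GFP libraries. Il6st followed with 57.0 ± 2.00 CPM per kb in ORAI2 and 72.5 ± 0.838 CPM per kb in GFP libraries. Osmr was close to it, with 55.3 ± 3.16 CPM per kb in ORAI2 and 69.5 ± 1.73 CPM per kb in GFP libraries (SD, n = 3 each). The libraries of Il6st and Osmr overlapped within the ORAI2 group but not within the GFP group. With lengths of 5491 bases for Osmr and 8678 bases for Il6st, Osmr per length was 0.954 to 0.994 times Il6st in ORAI2 libraries. In GFP libraries it was 0.941 to 0.980 times Il6st, and it was below Il6st in every library.

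Il6 came next, at 36.2 ± 4.43 CPM per kb in ORAI2 and 52.5 ± 3.73 CPM per kb in GFP libraries. Socs3 and Lif changed places. Socs3 was at 17.2 ± 0.829 CPM per kb in ORAI2 and 22.1 ± 0.880 CPM per kb in GFP libraries. Lif was at 17.7 ± 0.438 CPM per kb in ORAI2 and 13.6 ± 1.07 CPM per kb in GFP libraries. Their libraries overlapped in the ORAI2 group and were apart in the GFP group.

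Lifr was the scarce receptor chain, at 2.09 ± 0.159 CPM per kb in ORAI2 and 3.56 ± 0.235 CPM per kb in GFP libraries. Per length it was 0.0366 ± 0.0015 times Il6st in ORAI2 and 0.0491 ± 0.00267 times in GFP libraries. Tnfrsf11b, at 3.21 ± 0.455 CPM per kb in ORAI2 and 3.61 ± 0.204 CPM per kb in GFP libraries, overlapped Lifr in the GFP group but lay above it in the ORAI2 group. Il11 and Tnfsf11 were lowest, with Tnfsf11 at 0.152 ± 0.0728 CPM per kb in ORAI2 and 0.391 ± 0.0901 CPM per kb in GFP libraries (SD, n = 3 each).

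**Figure D3:**
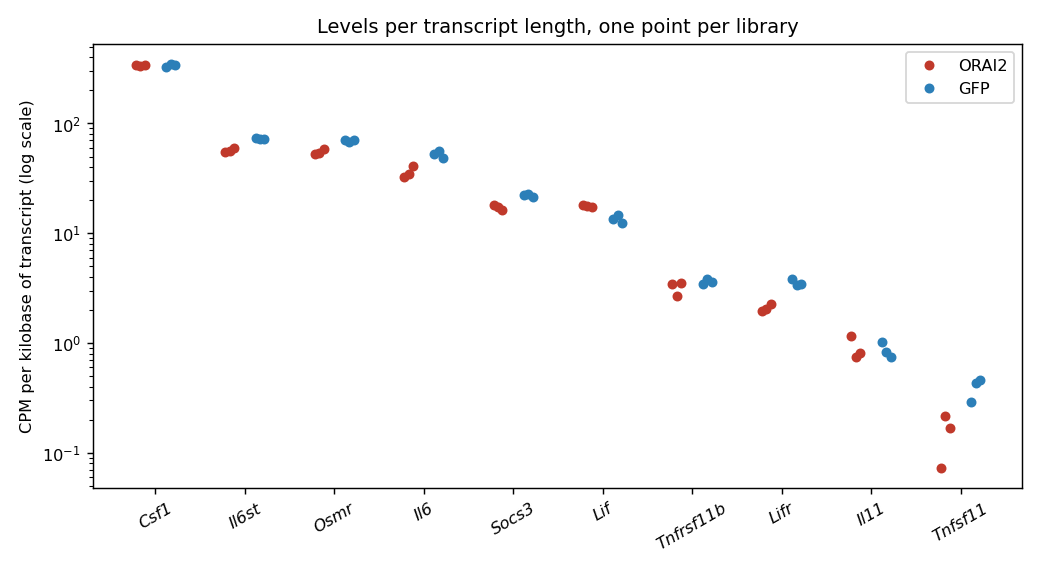
The y axis (log scale) is CPM per kilobase of the longest coding transcript and each point is a library, with ORAI2 (red) left of GFP (blue) and genes ordered by their GFP mean. Csf1 is at 339 CPM per kb in ORAI2 and 339.7 CPM per kb in GFP libraries, Il6st and Osmr run side by side, and Lifr and Tnfsf11 lie far below.

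The other genes of the family followed no single direction. Of 14 listed ligands and receptors, 7 were tested, of which 1 rose, 2 fell and 4 did not pass (median log2 fold change -0.26). Clcf1, a ligand for the ciliary neurotrophic factor receptor, rose 1.21-fold, to 42.6 ± 0.903 CPM in ORAI2, against 35.2 ± 2.66 CPM in GFP libraries (adjusted p = 0.00231, edgeR). Il11ra1, the alpha receptor of IL-11, was 1.32-fold lower, at 18.6 ± 1.31 CPM in ORAI2 and 24.6 ± 0.987 CPM in GFP libraries (adjusted p = 6.37e-04, edgeR).

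Il6ra, the alpha receptor of IL-6, was at 36.0 ± 0.025 CPM in ORAI2 and 39.4 ± 2.36 CPM in GFP libraries and did not pass (adjusted p = 0.0736, edgeR). Both alpha receptors were thus present beside gp130. Osm was not analysed here, and 6 further family genes, among them Cntfr and Il27, did not pass the filter, none exceeding 4 counts in a library.

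Of 18 JAK-STAT transducers and inhibitors, 12 fell, none rose and 6 did not pass, with a median log2 fold change of -0.17. The shares over all tested genes were 22.1% lower and 20.8% higher. Stat3, the main transducer of gp130, was 1.16-fold lower, at 185 ± 4.76 CPM in ORAI2 and 214 ± 3.99 CPM in GFP libraries (adjusted p = 4.08e-04, edgeR). Stat5a, a transducer of growth hormone and prolactin signals, was 1.7-fold lower, and Ptpn1, a phosphatase that dampens JAK signalling, 1.28-fold lower (adjusted p = 3.76e-06 for Stat5a and 1.63e-05 for Ptpn1, edgeR). Jak1, the kinase most tied to gp130, did not pass, at -0.09 in log2 (adjusted p = 0.0838, edgeR), and Jak2 was 1.23-fold lower. The feedback inhibitors Socs1 and Cish fell beside Socs3, by factors of 1.64 and 1.55, while Socs2 was at 0.11 in log2 and did not pass (adjusted p = 0.297, edgeR). Jak1, Jak2, Socs1, Socs2 and Cish are named here after their values were seen.

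Of 17 tested genes that STAT3 is known to induce, 12 fell, 1 rose and 4 did not pass, with a median log2 fold change of -0.34. Again 22.1% of all tested genes fell and 20.8% rose. Hp, the haemoglobin-binding acute-phase protein haptoglobin, was 3.39-fold lower, at 93.6 ± 13 CPM in ORAI2 and 317 ± 33.3 CPM in GFP libraries (adjusted p = 2.22e-08, edgeR). Cebpd, a transcription factor of the acute-phase response, was 1.38-fold lower, at 139 ± 2.69 CPM in ORAI2 and 192 ± 5.45 CPM in GFP libraries (adjusted p = 7.39e-07, edgeR). Saa3, a serum amyloid A protein made outside the liver, was 1.47-fold lower, at 588 ± 55.3 CPM in ORAI2 and 867 ± 25.1 CPM in GFP libraries (adjusted p = 6.43e-06, edgeR). The member that rose was Mcl1, a survival protein of the BCL2 family, 1.21-fold, named after its values were seen. Many of these genes also answer to other inflammatory signals, and 2 of 3 tested macrophage markers, Cd14 and Mpeg1, fell as well. The third, Cd68, did not pass (adjusted p = 0.438, edgeR). Under the filter, Lyz2 had 3 to 8 counts in ORAI2 and 0 to 7 counts in GFP libraries. Fcer1g had 2 to 4 counts in ORAI2 and 0 to 1 counts in GFP libraries. The 8 macrophage markers in the table summed to 26.8 to 36.2 CPM in ORAI2 and 52.0 to 56.4 CPM in GFP libraries, mostly from Cd14 and Mpeg1, while the defining markers Ptprc, Itgam and Csf1r never exceeded 4 counts. The part of these markers in the result was not tested.

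Among 19 tested genes of other osteoclast-supporting or -restraining factors, 4 rose, 7 fell and 8 did not pass (median log2 fold change -0.17). For all tested genes these shares were 20.8% higher and 22.1% lower. Ptgs2, the inducible cyclooxygenase that makes the precursor of the osteoclast-promoting prostaglandin E2, rose 1.97-fold, to 920.2 ± 109 CPM in ORAI2, against 468 ± 36.1 CPM in GFP libraries. Efnb2, an ephrin that signals between osteoclasts and osteoblasts, rose 1.74-fold, to 87.0 ± 6.83 CPM in ORAI2, against 49.9 ± 3.36 CPM in GFP libraries (adjusted p = 7.41e-07 and 8.23e-07, edgeR). Csf3, which encodes the granulocyte growth factor G-CSF, also passed in the higher direction, but it met the low-count filter only through the ORAI2 libraries. Cxcl12, a chemokine that draws in osteoclast precursors, was 1.44-fold lower, at 15.2 ± 0.621 CPM in ORAI2 and 21.8 ± 1.08 CPM in GFP libraries (adjusted p = 9.22e-05, edgeR). Outside the naming rule and chosen after their values were seen, Il34, Sema3a and Sfrp1 also fell. Il34, the second ligand of the M-CSF receptor, was 1.69-fold lower at 1.15 ± 0.210 CPM in ORAI2 and 1.95 ± 0.176 CPM in GFP libraries (adjusted p = 0.0164, edgeR). Sema3a and Sfrp1, which restrain osteoclasts, were 1.49-fold and 2.59-fold lower (adjusted p = 1.19e-04 and 5.23e-04, edgeR).

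Defining genes of the cells that receive RANKL and M-CSF were scarce. Tnfrsf11a, the receptor RANK, was at 0.430 ± 0.0938 CPM in ORAI2 and 0.679 ± 0.223 CPM in GFP libraries (adjusted p = 0.190, edgeR). Csf1r, the M-CSF receptor, had 0 to 4 counts in ORAI2 and 1 to 3 counts in GFP libraries, and Acp5, an osteoclast enzyme, at most 1 count in any library. Of 5 tested genes of receiving cells, 1 fell and 4 did not pass (median log2 fold change -0.17). The one that fell was Nfatc1, a transcription factor that fibroblasts also express, 1.13-fold, at 38.9 ± 2.23 CPM in ORAI2 and 43.7 ± 2.51 CPM in GFP libraries (adjusted p = 0.0343, edgeR), with the groups overlapping. Ctsk and Traf6, named after their values were seen, were higher in every ORAI2 library but did not pass. Ctsk had 18 to 21 counts in ORAI2 and 10 to 15 counts in GFP libraries (log2 fold change 0.74, adjusted p = 0.0538, edgeR). Traf6 was at 0.13 in log2 (adjusted p = 0.0588, edgeR).

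**Figure D4:**
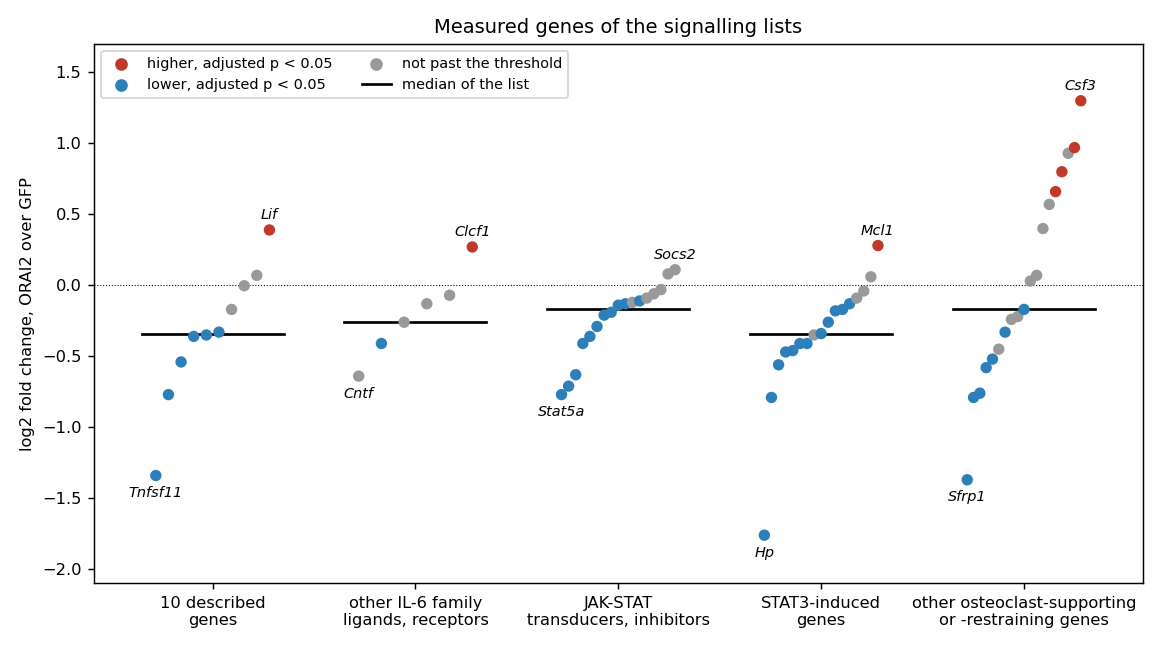
Each point is a tested gene (some are not drawn), with its log2 fold change (ORAI2 over GFP) on the y axis and its list on the x axis, colour gives the call, a line marks the median of each whole list, and the lowest and highest gene drawn are named. The medians are -0.34 for the 10 genes, -0.26 for other family genes, -0.17 for transducers, -0.34 for STAT3-induced genes and -0.17 for osteoclast-related genes, against -0.0018 over all tested genes.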

How the data were processed

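The authors deposited 1 table with whole-number counts and TPM values per gene and library, per the file headers. HISAT2 2.0.4, Salmon 1.4.0 and build GRCm39 are named in the submitters' processing notes, but the sources used here give no role for them, no annotation and no strand setting. The 6 count columns were used. The deposited TPM columns entered no comparison, because the column named ORAI2-3 lists Orai2 at the level of the GFP columns.

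Gene numbers were matched to RefSeq symbols of GRCm38.p6 (25631 of 26532, 96.6%). Counts were tested with edgeR 4.0.16 in R 4.3.3 (glmQLFit, glmQLFTest, TMM, filterByExpr with a minimum count of 10), ORAI2 against GFP, all genes adjusted together by Benjamini-Hochberg, called under 0.05. SEs come from the F statistic. Ratios used exact permutation tests on log2 CPM (prior count 2). Lengths are the longest coding transcripts of GENCODE M21. The total per library limits precision for genes with few counts. No pair of libraries in a group was a copy (chi-square per gene 2.54 to 4.50). The fit was tested on simulated data in which all genes shared the same dispersion and far fewer genes changed than were called here. That test does not give the share of false calls in these data.

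The members and lists were chosen with earlier results of these data known. Named genes are all members, Orai2, up to 3 called genes of smallest p per list, 6 receptors, ligands and transducers fixed by name, and the 3 genes most like the member of smallest p. Some genes that the rule names are not reported here, though list counts and medians include them. Alternatives were RLE, upper quartile and library-size scaling, no filter, a minimum of 5 CPM in 3 libraries, limma-voom (limma 3.58.1), DESeq2 1.42.0, the replicate number as a block, another prior count for the RANKL ratio, and each library left out.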

Additional observations from a re-analysis of the deposited data

Results flagged for a closer look

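The TPM columns, which no comparison uses, held values above all GFP columns. Orai2 was listed at 1429.5 TPM in the column named ORAI2-1 and at 1241.34 TPM in that named ORAI2-2, but at only 36.33 TPM under the name ORAI2-3. The GFP columns listed it at 24.83, 24.86 and 38.19 TPM. The same column named ORAI2-3 listed Il6 at 390.17 TPM, against at most 273.98 TPM in the GFP columns, whereas the Il6 counts of that library were below all GFP libraries. It also listed Lif at 100.61 TPM and Il11 at 2.30 TPM, against at most 40.24 and 1.86 TPM in the GFP columns. The column named GFP-3 also stood apart from the other GFP columns for some members. It listed Csf1 at 432.6 TPM, against 770.88 and 781.07 TPM, and Tnfrsf11b at 2.57 TPM, against 7.76 and 7.42 TPM. For Osmr the GFP columns were close, at 149.29, 158.49 and 156.15 TPM. Il6st was listed at 221.84, 226.25 and 229.97 TPM in the columns GFP-1, GFP-2 and GFP-3. Il6 stood above both in GFP-1 and GFP-2, at 273.98 and 240.19 TPM, and below both in GFP-3, at 143.77 TPM. Per kilobase of the longest transcript, Il6 lay below both in every library. Osmr lay further below Il6st in these TPM columns than per kilobase. Over 8915 genes, deviations of the TPM columns from the mean of each gene correlated with those of the counts of the same name at 0.12 for ORAI2-3, against 0.56 and 0.67 for ORAI2-1 and ORAI2-2 and 0.34 to 0.41 for the GFP columns. These differences were not tested.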

How the results depend on the processing

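Il6, Lif, Osmr, Il6st, Lifr and Socs3 kept their direction and call under all 14 alternatives, with log2 fold changes of -0.63 to -0.46, 0.33 to 0.44, -0.37 to -0.29, -0.37 to -0.32, -0.83 to -0.72 and -0.39 to -0.32. Tnfrsf11b passed under none of its 14 (-0.23 to -0.05, adjusted p 0.165 to 0.734). Tnfsf11 passed under 9 of 13 and could not be tested with the filter at 5 CPM, which also removed Il11. It had -1.36 with DESeq2 (adjusted p = 0.0567), and -1.67 to -1.01 over all alternatives, where leaving out 1 library gave adjusted p-values up to 0.0719. Il11 and Csf1, which never passed, turned sign in places. Without 1 library Il11 lay between -0.15 and 0.20 and Csf1 between -0.03 and 0.01, and with library-size scaling Csf1 was at 0.00027. The cause was not tested. The ratio of Tnfsf11 to Tnfrsf11b differed by -1.37 to -0.63 without 1 library and by -1.21 with the other prior count. The 5 other ratios kept their sign without any 1 library. Fitted with the replicate number as a block, 6246 genes passed in place of 5909 and 7 members passed as before. Same-numbered libraries deviated together only weakly (r = 0.14, 0.07 and 0.13), although each correlated best with its own number. Replicate 2 fell short of the minimum of 0.1 set for a pair, and the main fit did not take the numbers as pairs. Whether the numbers mark pairs was not settled. Depth limits Tnfsf11 and Il11.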

Other observations

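Orai2 itself differed among the ORAI2 libraries, at 3656, 2831 and 2441 CPM in replicates 1, 2 and 3. Il6, Osmr, Il6st and Lifr each ran opposite to Orai2 over these libraries, lowest where Orai2 was highest, while Lif and Socs3 ran in the same order as Orai2. For Socs3 this means that the library with the most Orai2 lay nearest to the GFP libraries. The other 4 members followed neither order. Among all genes called lower, 20.1% ran opposite to Orai2 and 11.2% in the same order, and among those called higher 21.5% ran in the same order and 11.3% opposite. With 3 libraries this order is a description, it was noticed in these data, and its cause was not tested.

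Endothelial and epithelial markers were sparse. The endothelial markers summed to 16.3 to 17.6 CPM in ORAI2 and 6.48 to 8.83 CPM in GFP libraries, from Vwf and Kdr, while Pecam1, Cdh5 and Tek had at most 9 counts in a library. Epithelial markers summed to 4.22 to 5.12 CPM in ORAI2 and 2.73 to 3.75 CPM in GFP libraries, with Epcam at 0 in every library. The higher sum came from Grhl2, at 2.36 ± 0.646 CPM in ORAI2 and 0.5 ± 0.188 CPM in GFP libraries. Krt18 was not higher, at 2.12 ± 0.237 CPM in ORAI2 and 2.48 ± 0.376 CPM in GFP libraries. T and B cell markers had at most 2 counts in a library.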
